A study of Mus musculus with 6 samples.

Results

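Sodium-potassium ATPase beta subunits were described here through 3 mouse genes, Atp1b1, Atp1b2 and Atp1b3, in the cochlear nucleus, where auditory nerve fibres end in the brainstem. The members were all probe sets that the annotation of the array platform assigned to exactly 1 of these symbols, which gave 8 of the 22690 probe sets on the array: 5 for Atp1b1, 2 for Atp1b2 and 1 for Atp1b3. The rule used gene symbols. Mice at postnatal day 21 had received tetrodotoxin, a toxin that stops action potentials by closing off sodium channels, in 1 cochlea by osmotic pump for 24 h. Nuclei of the infused side (ipsilateral) and of the opposite side (contralateral) were pooled from 10 to 12 mice per sample, with 3 biological replicates per side and 1 Affymetrix array per sample. Strain and sex were not given in the sources used here. Both sides came from infused animals and untreated mice were not part of the design, which leaves unknown on which side a difference arose.

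The sodium-potassium ATPase is the pump that exports sodium and imports potassium at the cost of ATP, restoring the gradients that action potentials and synaptic currents run down. It is built from a catalytic alpha subunit and a glycosylated beta subunit, which the alpha subunit needs to fold and reach the plasma membrane, and a small FXYD protein can join the complex and change its kinetics. In brain, beta 1 (Atp1b1) is known mainly from neurons, beta 2 (Atp1b2, also called the adhesion molecule on glia) mainly from astrocytes, and beta 3 (Atp1b3) is found widely, oligodendrocytes included. Neurons of the auditory brainstem fire at high rates and depend on this pump. In pooled tissue, fewer cells of a type and less RNA per cell cannot be told apart, and the arrays do not show in which cells a transcript lay.

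The start regions of the member genes in the RefSeq promoter table (build GRCm38.p6), which held 2 of the 3 members, are shown because the arrays report the transcripts made from them. Each run below is the 250 bases before the annotated start, in the direction of transcription, with capitals for matches on either strand to 1 of 3 motifs. These were the Sp1 box (GGGCGG), the core promoter box (TATATA) that positions RNA polymerase, and the core of the cyclic AMP response element (TGACG), which occurs at many promoters that respond to activity.
Atp1b1, chr1:164458356-164458605, minus strand: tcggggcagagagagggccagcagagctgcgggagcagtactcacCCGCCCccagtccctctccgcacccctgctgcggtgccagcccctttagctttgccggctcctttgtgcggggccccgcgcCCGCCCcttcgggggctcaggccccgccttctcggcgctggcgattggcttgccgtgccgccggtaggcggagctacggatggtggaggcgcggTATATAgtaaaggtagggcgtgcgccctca
Atp1b3, chr9:96364432-96364681, minus strand: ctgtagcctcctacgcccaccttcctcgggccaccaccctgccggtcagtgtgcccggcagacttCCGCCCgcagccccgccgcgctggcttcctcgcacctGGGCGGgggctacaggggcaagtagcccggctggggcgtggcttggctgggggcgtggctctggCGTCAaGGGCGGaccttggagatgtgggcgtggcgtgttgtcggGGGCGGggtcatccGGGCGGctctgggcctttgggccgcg
The Atp1b1 window held 2 Sp1 boxes and 1 core promoter box, which began 30 bases before the start, and no cyclic AMP motif. The Atp1b3 window held 5 Sp1 boxes, no core promoter box and 1 cyclic AMP motif, which began 84 bases before the start and overlapped none of the other motifs. The table gave a further start for Atp1b3 at chr9:96363716-96363965, whose window held none of the 3 motifs. Among all 32851 windows of this length, 32.74% held an Sp1 box, 5.25% the core promoter box and 17.77% the cyclic AMP motif. The share of G and C was 70.4% and 73.6% in the windows shown, against 52.4% in the median window. These matches are letters in a window and were not measured as binding sites.

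The measured mean levels of all 3 beta subunits differed little between the silenced and the opposite side. The intervals given below leave room for larger differences. Of the 8 probe sets, 7 had a mean log2 value above 4 over the 6 arrays and were tested, 5 measuring higher and 2 lower on the ipsilateral side, by a median log2 difference of 0.03, against -0.01 over all 15298 probe sets tested. None of the 7 passed a Benjamini-Hochberg adjusted p of 0.05 in limma, where the background was 0% of all probe sets. None had an unadjusted limma p under 0.05, against a background of 2.38%, and the smallest among the 7 was 0.235. In none of the 7 did the 3 ipsilateral arrays lie apart from the 3 contralateral arrays, which was so for 6.26% of all tested probe sets. The limma 95% intervals of the 7 probe sets ran at their widest from a 0.750-fold to a 1.33-fold ipsilateral level.

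Atp1b1, the beta subunit known from neurons, was measured by 4 bright probe sets and 1 dim one. On its brightest probe set, 1439036_a_at, the contralateral arrays read 14.32, 14.26 and 14.32 (log2, replicates 1 to 3) and the ipsilateral arrays 14.32, 14.41 and 14.54. Ipsilateral replicate 1 lay within the contralateral range and the other 2 ipsilateral arrays above it. The means were 14.30 ± 0.03 and 14.42 ± 0.11 (SD, n = 3 each), a difference of 0.12 with a standard error of 0.10. As a fold this was 1.09, with a 95% interval from 0.931 to 1.28 (limma, adjusted p = 1.00), and an exact two-sided permutation test over the arrays gave p = 0.2, where 3 against 3 cannot give less than 0.1. This was the largest side difference among the 7 tested probe sets.

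The other bright probe sets of Atp1b1 measured smaller side differences. Probe set 1423890_x_at read 13.34, 13.12 and 13.10 contralaterally and 13.18, 13.32 and 13.21 ipsilaterally, a difference of 0.05 (95% interval from -0.20 to 0.30). Probe set 1451152_a_at read 13.32, 13.12 and 13.08 contralaterally and 13.20, 13.23 and 13.08 ipsilaterally, a difference of -0.00 (95% interval from -0.25 to 0.24). On both, contralateral replicate 1 was the highest array and the sides overlapped. Probe set 1418453_a_at read 12.98, 12.86 and 12.90 contralaterally and 12.92, 12.91 and 13.00 ipsilaterally, a difference of 0.03 (95% interval from -0.18 to 0.24). The remaining probe set, 1455949_at, lay just under the minimum mean, at 3.96, and was not tested. It read from 3.69 to 4.21 contralaterally and from 3.79 to 4.19 ipsilaterally, with no separation of the sides.

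Across the 6 arrays the probe sets of Atp1b1 did not track each other closely. Pearson's r, given as a description over 6 arrays, which may share mice by replicate number, was 0.84 between 1423890_x_at and 1451152_a_at, which the annotation assigns to the same accession, and ranged from -0.25 to 0.66 for the other pairs of bright probe sets. The whole range over the 6 arrays was 0.28, 0.24, 0.24 and 0.14 on the log2 scale, from the brightest probe set to the dimmest of the 4. Over all tested probe sets the median of that range was 0.43, and over the 1542 probe sets at least as bright as the dimmest tested member it was 0.26. The Atp1b1 probe sets were brighter than 99.1% to 99.9% of those tested.

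Atp1b2, the beta subunit and adhesion molecule known from astrocytes, was measured by 2 probe sets. The brighter, 1435148_at, read 11.64, 11.54 and 11.60 contralaterally and 11.50, 11.67 and 11.71 ipsilaterally. Replicate 1 held the lowest ipsilateral array and the highest contralateral one, so the sides overlapped. The means were 11.59 ± 0.05 and 11.62 ± 0.11 (n = 3 each), a 1.02-fold level ipsilaterally with a 95% interval from 0.871 to 1.20 (limma, adjusted p = 1.00).

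The dimmer probe set of Atp1b2, 1422009_at, read 10.01, 10.42 and 10.19 contralaterally and 10.28, 9.89 and 10.45 ipsilaterally. Its means were both 10.21, and its range of 0.56 over the 6 arrays was the widest of the 7 tested members. Contralateral replicate 1 and ipsilateral replicate 2 were its lowest arrays. The same 2 arrays were lowest in a measure of transcript completeness, the mean log2 value at the 5′ end minus that at the 3′ end of 4 control genes (beta-actin, Gapdh, pyruvate carboxylase and transferrin receptor). That measure read -1.78, -1.11 and -1.54 contralaterally and -1.56, -1.85 and -1.58 ipsilaterally. Its part in the values of 1422009_at was not tested.

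Atp1b3 was measured by 1 probe set, 1423126_at, which varied least of the 7. It read 11.13, 11.05 and 11.01 contralaterally and 11.12, 11.02 and 11.07 ipsilaterally. All 3 ipsilateral arrays lay within the contralateral range. The means were 11.06 ± 0.06 and 11.07 ± 0.05 (n = 3 each), a 1.01-fold level with a 95% interval from 0.873 to 1.16 (limma, adjusted p = 1.00). The range over the 6 arrays was 0.12, narrower than that of 97.7% of all tested probe sets.

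By replicate number the members did not differ in 1 direction. In replicate 1 the ipsilateral array was the lower one for 6 of the 7 tested probe sets, in replicate 2 the higher one for 5 of 7 and in replicate 3 the higher one for 7 of 7. Over all tested probe sets the ipsilateral array was the higher one in 45.5%, 52.3% and 49.0% of cases in replicates 1, 2 and 3. All 4 bright probe sets of Atp1b1 were lower in replicate 1 and higher in replicates 2 and 3, by -0.00, 0.15 and 0.23 on the brightest. The 4 probe sets measure 1 gene and are not independent.

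To set the neuronal against the glial subunit, the log2 ratio of their brightest probe sets was formed within each array, and only its change between the sides was read. The ratio of Atp1b1 to Atp1b2 was 2.67, 2.72 and 2.72 contralaterally and 2.82, 2.74 and 2.84 ipsilaterally. All 3 ipsilateral arrays lay above all 3 contralateral ones, by a mean of 0.09. The exact two-sided permutation p was 0.1, the smallest that 3 against 3 arrays can give, and 0.3 after adjustment over the 3 pairs of subunits. That test treats the 6 arrays as independent. With arrays paired by replicate number, an exact test flipping the signs of the 3 replicate differences gave p = 0.25, the smallest that 3 pairs can give. With all tested probe sets of each gene averaged instead of the brightest alone, the change was 0.03 (exact permutation p = 0.7), and with quantile normalization of the arrays it was 0.09 (exact permutation p = 0.2), so the complete separation was lost under either choice.

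The other ratios overlapped between the sides. That of Atp1b1 to Atp1b3 was 3.19, 3.21 and 3.31 contralaterally and 3.20, 3.38 and 3.47 ipsilaterally, a change of 0.11 (exact permutation p = 0.3, adjusted p = 0.45). That of Atp1b2 to Atp1b3 was 0.51, 0.49 and 0.59 contralaterally and 0.38, 0.65 and 0.63 ipsilaterally, a change of 0.02 (exact permutation p = 0.8, adjusted p = 0.8). The exact sign-flip test over replicate numbers gave p = 0.25 for Atp1b1 to Atp1b3 and p = 0.75 for Atp1b2 to Atp1b3. Ipsilateral replicate 1 was the lowest array of the ratio of Atp1b2 to Atp1b3.

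**Figure D1:**
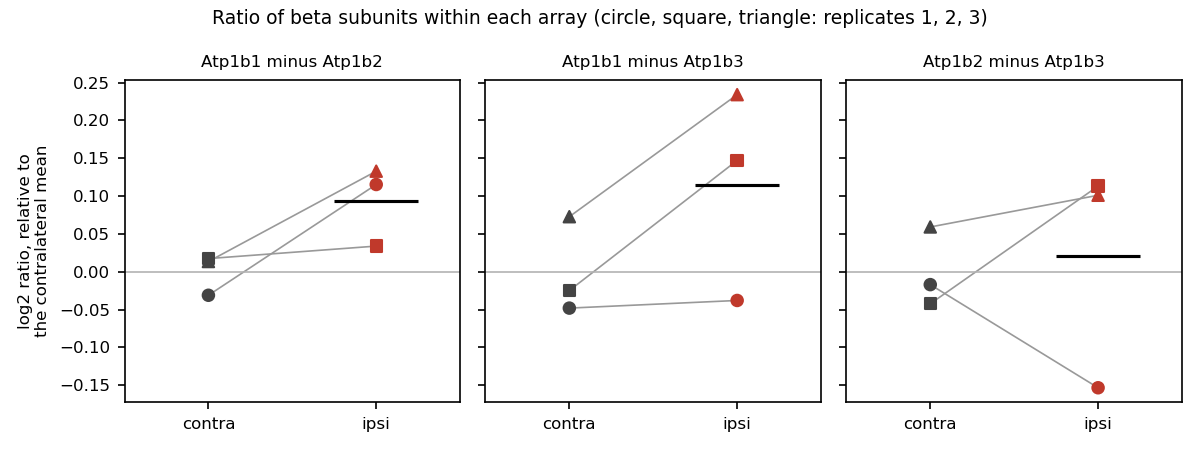
Log2 ratio of the brightest probe sets of 2 beta subunits within each array (vertical axis, relative to the contralateral mean), with contralateral arrays in grey, ipsilateral arrays in red, lines joining arrays of 1 replicate number and a bar at the ipsilateral mean. The sides are apart for Atp1b1 minus Atp1b2, by a mean of 0.09, and overlap for the other 2 ratios.

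Other genes of the pump and of the transport it drives came from lists of pathway genes, of which 29 genes were looked at here and 20 were bright enough to test, 1 probe set per gene. The catalytic alpha subunits and the sodium-activated potassium channels were not analysed here. Of the 20 genes 12 measured higher and 8 lower on the ipsilateral side, by a median log2 difference of 0.03, where 49.1% of all 8754 genes tested measured higher. None passed the adjusted threshold in limma, which no tested probe set passed. None had an unadjusted limma p under 0.05, which 2.43% of all genes had. The sides did not overlap for 1 of the 20, against a background of 6.63%.

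FXYD proteins, the small regulators of the pump, were the list with the largest median difference. All 4 tested members measured lower ipsilaterally, with a median of -0.19, where 49.1% of all genes measured higher. Like all tested probe sets, none of the 4 passed the adjusted threshold. Fxyd5, known as dysadherin, read 6.51, 6.43 and 6.16 contralaterally and 5.97, 6.21 and 6.13 ipsilaterally, a difference of -0.26 (95% interval from -0.56 to 0.04) with the sides overlapping through contralateral replicate 3. Fxyd4, known from kidney and colon, was dim and differed by -0.19, and Fxyd6, a brain member, by -0.03. Fxyd2, Fxyd3 and Fxyd7 were too dim to test.

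Fxyd1, which encodes phospholemman, differed between arrays of 1 side more than between the sides. It read 8.34, 8.21 and 8.21 contralaterally and 8.66, 7.66 and 7.84 ipsilaterally, a difference of -0.20 (95% interval from -0.79 to 0.39). Ipsilateral replicate 1 was the highest array and ipsilateral replicates 2 and 3 the lowest. Markers of the choroid plexus, the secretory tissue next to the nucleus, were likewise highest on ipsilateral replicate 1 and lowest on ipsilateral replicates 2 and 3: the 8 of 11 markers tested averaged 8.06, 7.86 and 7.37 contralaterally and 9.08, 4.78 and 4.91 ipsilaterally. The bicarbonate transporter gene Slc4a10 read 10.37, 10.23 and 10.20 contralaterally and 10.75, 9.77 and 9.97 ipsilaterally. The sodium-potassium-chloride cotransporter gene Slc12a2 followed this order only in part. It was highest on ipsilateral replicate 1, at 12.05, and lowest on ipsilateral replicate 3, at 11.35. On ipsilateral replicate 2 it read 11.67, above contralateral replicate 2 at 11.49. These 3 genes were singled out after their values were seen, and the part of choroid plexus tissue in them was not tested.

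At their brightest probe sets, Atp1b1 and Atp1b2 did not have that pattern. Atp1b1 read 14.41 and 14.54 and Atp1b2 11.67 and 11.71 on the 2 arrays low in choroid plexus markers, and these were the 2 highest arrays for each gene. Without those 2 arrays, an alternative chosen after the data were seen that leaves 1 ipsilateral array, the side difference of Atp1b1 was 0.02 and that of Atp1b2 -0.10, against 0.12 and 0.03 with all arrays. Atp1b3 was second highest on ipsilateral replicate 1, at 11.12, and second lowest on ipsilateral replicate 2, at 11.02. Its side difference moved the other way, from 0.01 with all arrays to 0.06 without those 2 and 0.04 with the marker level as a covariate. With all arrays, none of these differences passed the adjusted threshold, which no tested probe set passed.

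**Figure D2:**
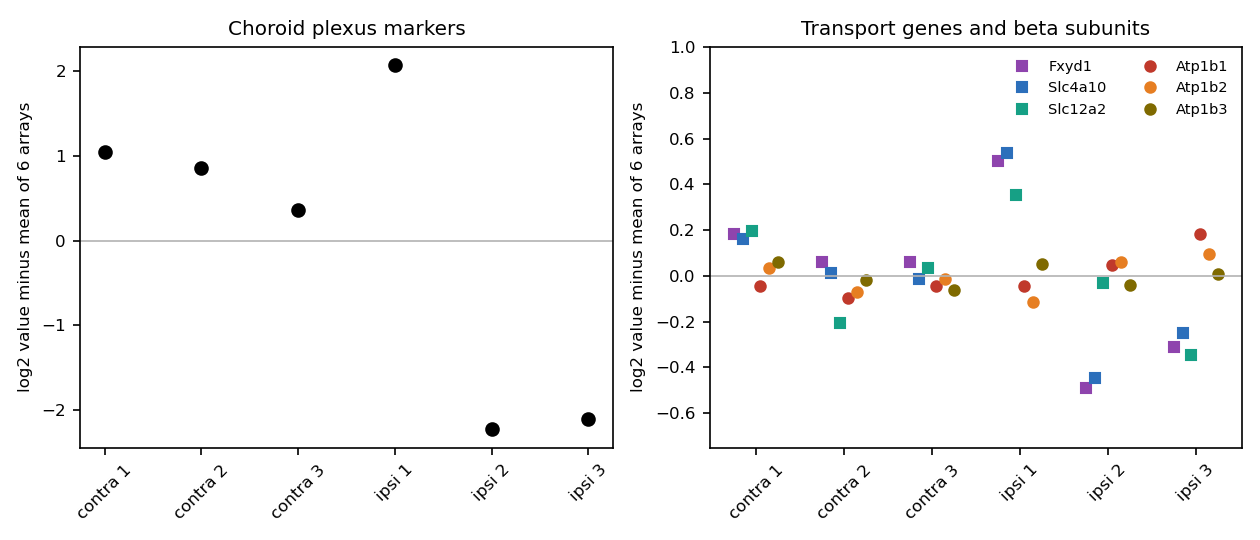
Log2 value of each array minus the mean of the 6 arrays (vertical axes), for the mean of 8 choroid plexus markers (left) and for 3 transport genes (squares) and the brightest probe set of each beta subunit (circles, right). The vertical scales differ: the markers drop by over 2 log2 units below their mean on ipsilateral replicates 2 and 3, where Fxyd1 and Slc4a10 are lowest and Atp1b1 and Atp1b2 are highest.

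Genes that work beside the glial pump in clearing potassium and glutamate were close to level at their brightest probe sets. There, 7 of 7 tested genes measured higher ipsilaterally, by a median of 0.05, against 49.1% of all genes, and none passed the test. The count depends on that choice of probe set. A dimmer tested probe set of Gja1 differed by -0.14 and 1 of Slc1a3 by -0.23. The other dimmer tested probe sets of these genes measured higher. The water channel gene Aqp4 differed by 0.11 (95% interval from -0.14 to 0.36), the glutamate transporter gene Slc1a2 by 0.09 and the potassium channel gene Kcnj10 by 0.02. Among exchangers and cotransporters that use the ion gradients 4 of 7 measured higher, with a median of 0.05. Slc24a3, a potassium-dependent sodium-calcium exchanger, read 8.53, 8.41 and 8.55 contralaterally and 8.62, 8.61 and 8.71 ipsilaterally and was the 1 gene whose sides did not overlap (difference 0.15, 95% interval from -0.07 to 0.36). Slc12a7, a potassium-chloride cotransporter, was dim and differed by 0.21, and Slc12a5, the neuronal cotransporter KCC2, by 0.05. Of the NKAIN proteins, known as partners of the beta subunit, Nkain1 differed by 0.07 and Nkain4 by -0.09. The related subunit genes Atp1b4, Atp4a, Atp4b and Atp12a were too dim to test.

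Fos, an immediate early gene of active neurons, is an example of a large side difference on these arrays. It was on none of the lists and was named after its values were seen, for which its interval is not adjusted. It read 9.67, 9.81 and 8.82 contralaterally and 7.51, 7.47 and 7.79 ipsilaterally. The 95% interval of its level ran from 0.181-fold to 0.427-fold (limma, adjusted p = 1.00), apart from the intervals of all 7 tested beta subunit probe sets.

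**Figure D3:**
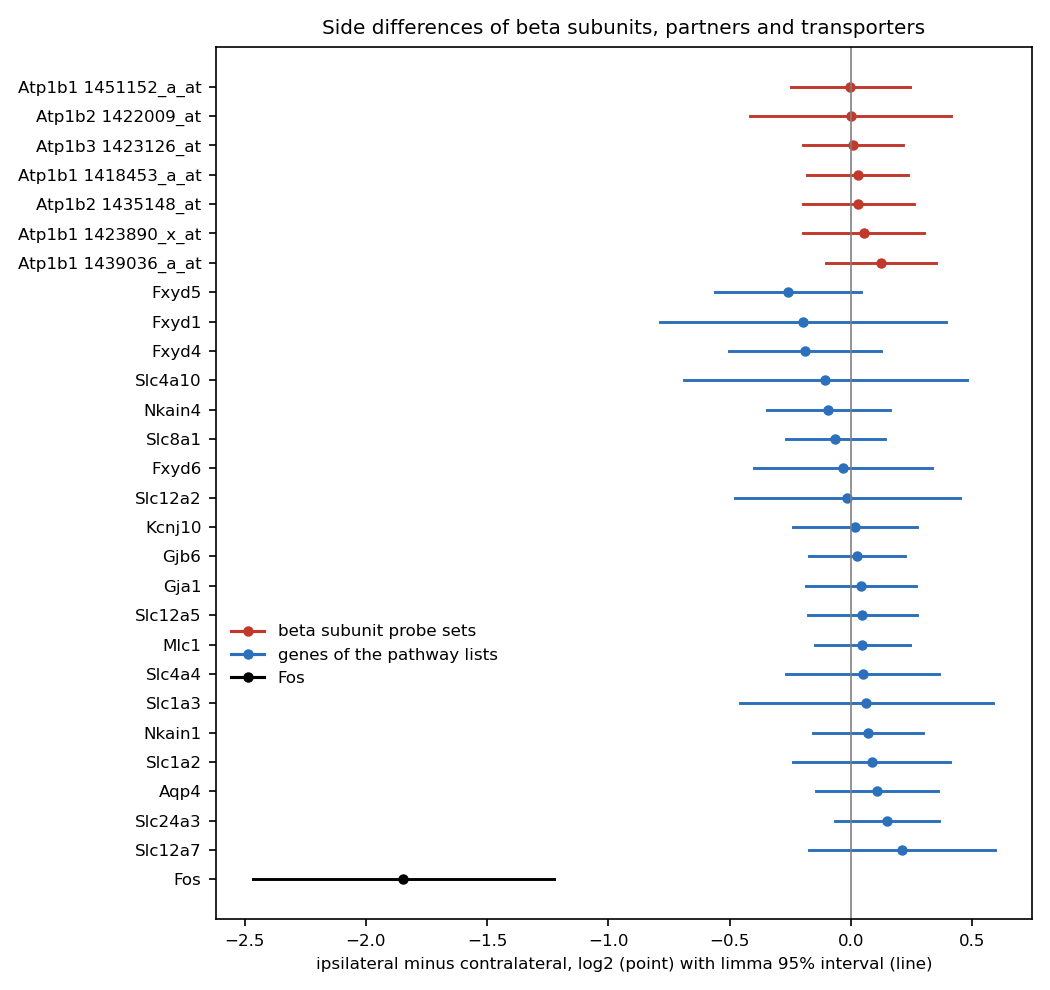
Ipsilateral minus contralateral difference on the log2 scale (horizontal axis, point) with its limma 95% interval (line) for the 7 tested beta subunit probe sets (red), the 20 tested genes of the pathway lists (blue) and Fos (black). The intervals of all beta subunit probe sets and pathway genes include 0, and that of Fos lies between -2.47 and -1.23.

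Cell type markers gave the background for these values. Neuronal markers averaged from 10.93 to 11.15 on the contralateral and from 10.91 to 11.23 on the ipsilateral arrays, and astrocyte markers from 10.91 to 11.00 and from 10.96 to 11.01. Oligodendrocyte markers averaged from 12.66 to 12.93 and from 12.89 to 12.94, and microglial markers from 6.79 to 7.02 and from 7.07 to 7.15, the 1 list of these 4 whose sides did not overlap. Among single genes, 6.63% had sides apart. Measuring higher ipsilaterally were 4 of 10 neuronal, 7 of 10 astrocyte, 7 of 7 oligodendrocyte and 8 of 8 microglial markers, against 49.1% of all genes. An unadjusted limma p under 0.05 was found for 3 of the 8 microglial markers and for none of the other lists, against 2.43% of all genes. Endothelial markers averaged from 6.57 to 6.58 and from 6.38 to 6.64. The 7 tested markers of cochlear nucleus identity had means from 7.28 to 7.35 and from 7.20 to 7.29. None passed the adjusted threshold in limma, but neither did any other tested probe set, so this says nothing particular about them. The part of cell content in the beta subunit values was not tested.

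The genes whose values most resembled those of each subunit over the 6 arrays were found among 6064 genes whose values spanned at least 0.3 on the log2 scale. For Atp1b1 they were L1cam, a neuronal adhesion molecule (Pearson's r = 0.98), Nptx1, a neuronal pentraxin (0.98), Zfp777 (0.98) and Tcf3 (0.97). For Atp1b2 they were Acin1 (0.99), Chka (0.99), Atg14 (0.98) and Rgs5 (0.97), and for Atp1b3 they were Denn2b (0.99), Gstt3 (0.97), Mrc2 (0.96) and Catsper2 (0.95). Between the subunits themselves r was 0.78 for Atp1b1 and Atp1b2, -0.06 for Atp1b1 and Atp1b3 and -0.19 for Atp1b2 and Atp1b3. A search over so many genes with 6 arrays returns high values, so these are descriptions.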

How the data were processed

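The deposited log2 values, 1 per probe set and array, were made with GCRMA per the submitters' processing notes. GCRMA models background, normalizes the arrays to each other and combines a set's probes into 1 value, with version and options not given in the sources used here. That the scale is log2 follows from the values, from 1.40 to 16.0 with array medians from 5.86 to 5.91. Normalization between arrays removes a change common to most genes, and GCRMA compresses dim values. Arrays give no read depth, and their number limits the precision.

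Each sample description gave the side and the replicate number. Of 22690 probe sets 20393 had 1 gene symbol, 691 several and 1606 none, no probe set with several symbols named a member, and every symbol printed matched RefSeq by Entrez identifier. The 64 control probe sets and 7328 with a mean at or below 4 were left out. The fit over the remaining 15298 was limma 3.58.1 in R 4.3.3 (lmFit, eBayes), ipsilateral minus contralateral, with no replicate block and Benjamini-Hochberg adjustment. It was tested on simulated data. The probe set of highest mean stands for a gene. Pairs of subunits were compared by exact permutation over the arrays, and by exact sign flips of the 3 replicate differences.

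Named genes were all member probe sets, up to 2 genes per pathway list by smallest p, and the 4 most correlated genes per member, with others named after their values were seen. The members and lists were chosen with earlier results of these data known. The series describes pools per replicate and 1 infused ear, so samples sharing a number were taken as both sides of the same mice. After subtraction of each side's mean, the 2 samples of replicates 1, 2 and 3 correlated at r = 0.09, 0.04 and 0.57 over the tested probe sets, and samples of different number at -0.37 to 0.30. For replicates 1 and 2 a sample of another number was the closer match.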

Additional observations from a re-analysis of the deposited data

How the results depend on the processing

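The count of probe sets past the adjusted threshold was 0, with 364 at an unadjusted limma p under 0.05, and lay between 0 and 5 when an array or a replicate number was left out. It was 5 with ipsilateral replicate 1 left out, 2 with both arrays of replicate 1 left out and 0 in the other alternatives run. With the replicate block, limma gave 0 after adjustment and 569 unadjusted, and the block changed no call. With 1 array per side and replicate number, the block can change the standard error but not a side difference. Those of Atp1b1, Atp1b2 and Atp1b3 therefore stayed at 0.12, 0.03 and 0.01. No alternative brought a subunit past the threshold (adjusted limma p of 0.991 or more).

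Atp1b1 stayed higher ipsilaterally in all 20 alternatives. Those that changed only the filter, the variance estimate or the replicate block could not alter its difference of 0.12. With 1 array or 1 replicate number left out, the difference lay between 0.0640 and 0.187. It was 0.05 as the mean of its tested probe sets and 0.07 with a covariate for choroid plexus markers. Without the 2 ipsilateral arrays low in those markers it was 0.02. Differences near 0 changed sign. Atp1b2 lay between -0.0194 and 0.119 with 1 array or replicate number left out, and was -1.36e-04 with array weights, -0.0353 with the covariate and -0.0979 without the 2 low arrays. Atp1b3 lay between -0.0184 and 0.0433 with 1 array or replicate number left out, and was 0.0390 with the covariate and 0.0553 without the 2 low arrays. Atp1b1 relative to Atp1b2 lay between 0.07 and 0.13 with 1 array or replicate number left out. Atp1b1 relative to Atp1b3 lay between 0.05 and 0.19, and was -0.0379 without the 2 low arrays. Atp1b2 relative to Atp1b3 lay between -0.0472 and 0.107, and was -0.0743 with the covariate and -0.153 without the 2 low arrays. Both choroid plexus alternatives were chosen after seeing the data, and the second assumes that the lone ipsilateral array varies like the others. The alternative meant to drop probe sets liable to cross-hybridize left out every bright Atp1b1 probe set by its suffix, _a_at as well as _x_at. The remaining probe set was too dim to test, so Atp1b1 had no value there. This choice by suffix does not show that the bright probe sets cross-hybridize, and it was no check of Atp1b1. A pseudocount was not needed for log values.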
